A study of Mus musculus with 6 samples.

Results

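The IRF and STAT transcription factors described here are 9 genes, namely the interferon regulatory factors Irf1, Irf2, Irf3, Irf5, Irf7 and Irf9 and the signal transducers and activators of transcription Stat2, Stat3 and Stat6. The rule took them by name from 11835 mouse genes with a value in the deposited expression table, with earlier results of these data known. All 9 passed the filter on low values and were among the 11593 genes tested. The samples were 6 RNA-seq libraries of C2C12, a mouse myoblast line that fuses into myotubes when serum is lowered. Of these, 3 were from cells transfected with NC siRNA, a negative control (siNC), and 3 from cells transfected with CNN3 siRNA (siCNN3), which targets the actin-binding protein calponin 3. All cultures had been switched to horse serum for differentiation. The labels gave the cell type as mouse myotube, whereas the study described the sequenced cells as differentiating myoblasts. Both groups were of 1 immortal line and both carried an siRNA and transfection reagent, and no untransfected culture was analysed here. The study's methods give a harvest time for differentiation analyses in general, but do not state it for the sequenced libraries, nor which CNN3 siRNA these received. The labels do not say that the 3 libraries of a group came from separate cultures, so p-values measure the spread between these libraries, which may be partly technical.

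IRF proteins are transcription factors with a shared DNA-binding domain that recognises repeated GAAA elements, which form the interferon-stimulated response element (ISRE). STAT proteins wait in the cytoplasm, are phosphorylated by JAK kinases at cytokine receptors, and then enter the nucleus as dimers that bind GAS elements. Type I interferon joins both families, because STAT2, a further STAT protein and IRF9 assemble into ISGF3, the complex that binds ISREs. IRF3 and IRF7 act before interferon, by switching on its genes once sensors of foreign nucleic acid have activated the kinases that phosphorylate them.

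Values are FPKM, read fragments scaled to transcript length and library size, and were added up over the transcripts of a gene, so levels of different genes can be set side by side. Read numbers were not given, so the depth is unknown and counting error was not estimated. Cnn3, the targeted gene, was listed with 62.8, 61.4 and 62.8 FPKM in the siNC libraries (replicates 1, 2 and 3) against 19.04, 39.2 and 25.6 FPKM in the siCNN3 libraries. The highest siCNN3 library lay under the lowest siNC library, with a log2 difference of -1.19 ± 0.242 (SE) that did not pass the threshold (adjusted p = 0.0669, or 0.0477 without siCNN3 replicate 2, limma). Of the skeletal muscle markers, 12 of 15 were tested and 6 fell, namely the sarcomere genes Acta1, Mylpf, Tnnt1, Tnni2, Tnnc2 and Myh3, against 0.336% of all tested genes called lower, and the list had a median log2 difference of -1.20. Tnnc2 and Myh3, with siCNN3 means of 0.382 and 0.302 FPKM, passed the filter on low values only through siNC. Their calls are a description and no support for a difference. The number that fell was 1 without siNC replicate 3 or without siCNN3 replicate 2 (Acta1) and 2 without siCNN3 replicate 1. Myf5, a factor of undifferentiated myoblasts, was on the other side of 0 with overlapping groups (0.88, adjusted p = 0.238, limma) and was called higher without siCNN3 replicate 3 (0.0299). Of 19 blood and immune cell markers, 1 was listed at all (Lyz2, between 0.481 and 4.80 FPKM), and of 6 endothelial markers 1 was listed (Tek, between 0.681 and 1.37 FPKM). In bulk RNA, fewer cells of a type and less RNA per cell cannot be told apart. The part of the lower muscle markers in the values that follow was not tested.

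Promoter windows of the 9 genes were read from RefSeq sequences of build GRCm38.p6, each covering 250 bases before and 50 after an annotated start. There were 11 windows, since Irf1 and Irf9 have 2 each. Both strands were searched for the core of the ISRE, GAAANNGAAA, and for the GAS element, TTCNNNGAA. A core ISRE was found in 2 of the 11 windows and in 3.44% of all 32851 windows of this length, and a GAS in 2 of the 11 and in 8.30% of all. The matches lay in 3 of the 9 genes. Windows of 4 genes are shown, namely those of the 3 genes with a match, in capitals, and that of Irf7 without one. Windows with a match are therefore over-represented among those shown. The Irf1 window (chr11:53769764-53770063, plus strand) held a GAS whose first base lay 90 bases before the start. The Irf2 window (chr8:46739495-46739794, plus strand) held a core ISRE at 241 bases and a GAS at 224 bases before the start, and the Stat2 window (chr10:128270248-128270547, plus strand) held a core ISRE at 222 bases, on the other strand. That of Irf7 is chr7:141266375-141266674, minus strand.
Irf1: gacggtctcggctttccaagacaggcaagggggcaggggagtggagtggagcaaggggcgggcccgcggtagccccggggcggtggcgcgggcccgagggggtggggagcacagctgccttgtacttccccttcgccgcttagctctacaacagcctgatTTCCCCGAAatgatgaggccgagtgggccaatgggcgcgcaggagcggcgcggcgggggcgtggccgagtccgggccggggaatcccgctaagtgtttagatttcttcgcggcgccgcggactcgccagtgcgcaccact
Irf2: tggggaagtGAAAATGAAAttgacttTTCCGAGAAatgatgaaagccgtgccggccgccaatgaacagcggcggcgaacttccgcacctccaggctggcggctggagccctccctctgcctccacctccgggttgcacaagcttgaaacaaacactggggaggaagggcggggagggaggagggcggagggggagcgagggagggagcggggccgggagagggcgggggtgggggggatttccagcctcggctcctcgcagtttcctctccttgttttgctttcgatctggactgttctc
Stat2: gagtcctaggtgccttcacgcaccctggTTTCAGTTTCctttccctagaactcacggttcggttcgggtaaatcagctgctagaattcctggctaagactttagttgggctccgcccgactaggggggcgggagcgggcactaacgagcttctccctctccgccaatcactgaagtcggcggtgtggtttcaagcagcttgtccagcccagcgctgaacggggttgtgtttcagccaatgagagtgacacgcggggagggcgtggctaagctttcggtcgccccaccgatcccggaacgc
Irf7: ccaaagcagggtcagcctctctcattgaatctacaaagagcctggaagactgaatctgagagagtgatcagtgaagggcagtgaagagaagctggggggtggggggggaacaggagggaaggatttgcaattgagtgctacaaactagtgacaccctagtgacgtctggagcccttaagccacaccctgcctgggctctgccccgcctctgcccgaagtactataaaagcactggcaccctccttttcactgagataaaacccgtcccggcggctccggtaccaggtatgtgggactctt
A spaced form of the GAS with 1 more base, TTCNNNNGAA, which STAT6 is known to prefer, was found in the Stat2 window and in 1 of the windows of Irf9, as in 6.95% of all windows. The windows of Irf3, Irf5, Stat3 and Stat6 held none of the 3 motifs. A match is a run of letters only, and no binding was measured.

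Compared with siNC, the siCNN3 libraries had more mRNA of Irf7 and Irf5. Irf7 rose 18.3-fold and Irf5 rose 4.76-fold in mean FPKM, and both passed the test. Irf1, Irf9 and Stat2 had means 2.67 to 3.87 times those of siNC with no overlap between groups, but did not pass after adjustment. Irf2, Irf3, Stat3 and Stat6 overlapped between the groups. In counts, limma with Benjamini-Hochberg adjustment over all tested genes called 2 of the 9 genes higher, against 1.73% of all tested genes, and 0 lower, against 0.336%. With 1 library left out, the number called was 4 without siNC replicate 2, 1 without siNC replicate 1, and 0 without siNC replicate 3 or either of siCNN3 replicates 1 and 2. At an unadjusted p below 0.05, 5 of the 9 were higher, against 9.94% of all tested genes, and 0 lower, against 6.14%. The groups did not overlap, with siCNN3 higher, for 5 of the 9 genes and for 13.8% of all tested genes, and with siCNN3 lower for 0 of the 9 and 9.35% of all. For 3 libraries against 3, such a gap has the smallest p that a two-sided exact permutation test can reach, 0.1. The median log2 difference was 1.55 over the 9 genes and 0.03 over all tested genes.

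**Figure D1:**
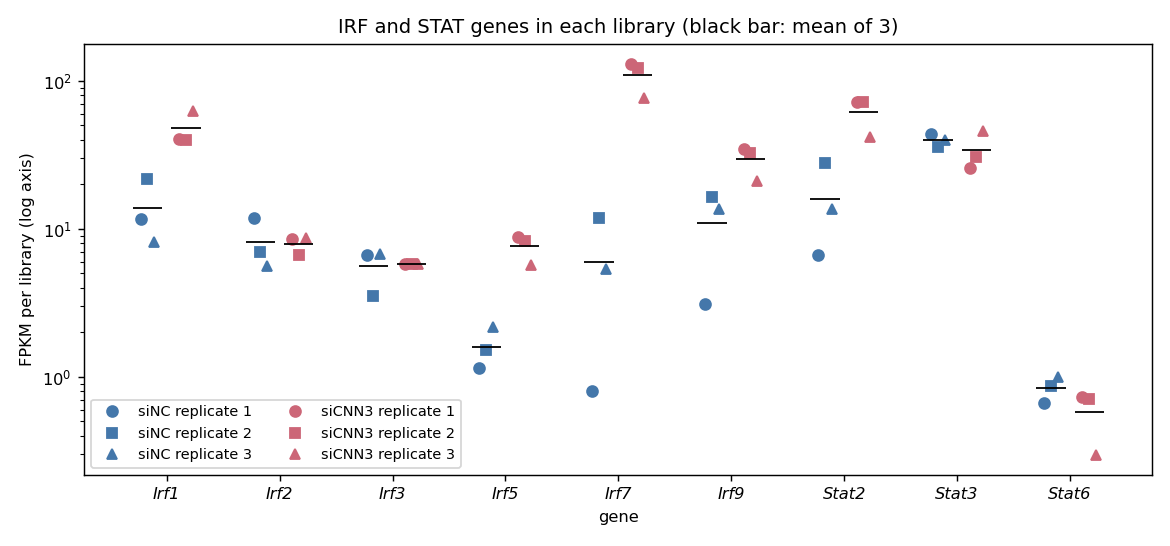
FPKM of the 9 genes in each library, on a log axis, with siNC in blue and siCNN3 in red, a marker shape for each replicate number and a black bar for the mean of 3. The 3 siCNN3 libraries lie above the 3 siNC libraries for Irf1, Irf5, Irf7, Irf9 and Stat2, and the groups overlap for Irf2, Irf3, Stat3 and Stat6.

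Irf7, the factor that amplifies type I interferon production once interferon has been made, lies on chromosome 7 (141262706 to 141266481, minus strand, GRCm38). It was listed with 0.796, 11.8 and 5.33 FPKM in the siNC libraries (replicates 1, 2 and 3) against 130.8, 121.5 and 76.6 FPKM in the siCNN3 libraries. The lowest siCNN3 library was 6.48 times the highest siNC library, although the siNC libraries themselves spanned 14.9-fold, with replicate 1 far below the others. The mean was 5.98 ± 5.54 FPKM for siNC, compared with 109.6 ± 29.0 FPKM for siCNN3 (SD, n = 3). On the log2(FPKM + 1) scale, which understates changes of low values, Irf7 rose by 4.36 ± 0.665 (SE, 95% interval 2.78 to 5.93, adjusted p = 0.0305, limma). The ratio of means leaned on siNC replicate 2 and was 35.8 without it, and the log2 difference lay between 3.58 and 5.00 over the 6 fits without 1 library. Those fits gave adjusted p-values between 0.0187 and 0.126 (limma). The call was lost on removal of siNC replicate 3 (0.126) and of replicate 1 (0.115) or 2 (0.121) of siCNN3, and also with a pseudocount of 0.1 (0.0506).

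Irf5, known for driving inflammatory cytokine genes downstream of Toll-like receptors, lies on chromosome 6 (29526625 to 29541871). Its level was low in siNC, at 1.14, 1.51 and 2.16 FPKM in replicates 1, 2 and 3. In siCNN3 it was 8.87, 8.32 and 5.69 FPKM. The groups were well apart and the siNC values close together, with means of 1.60 ± 0.515 and 7.63 ± 1.70 FPKM (SD, n = 3). The log2 difference was 1.73 ± 0.223 (SE, 95% interval 1.20 to 2.26, adjusted p = 0.0170, limma). Over the 6 fits without 1 library, the adjusted p from limma ranged from 0.00838 to 0.0939. It stayed below the threshold without siNC replicate 2 or siCNN3 replicate 3, and was above it on removal of replicate 1 (0.0609) or 3 (0.0646) of siNC and of replicate 1 (0.0820) or 2 (0.0939) of siCNN3. The call of Irf5 was also lost with its highest transcript in place of the sum (adjusted p = 0.0741, limma) and after removal of transcripts with an exact 0 (0.0508).

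**Figure D2:**
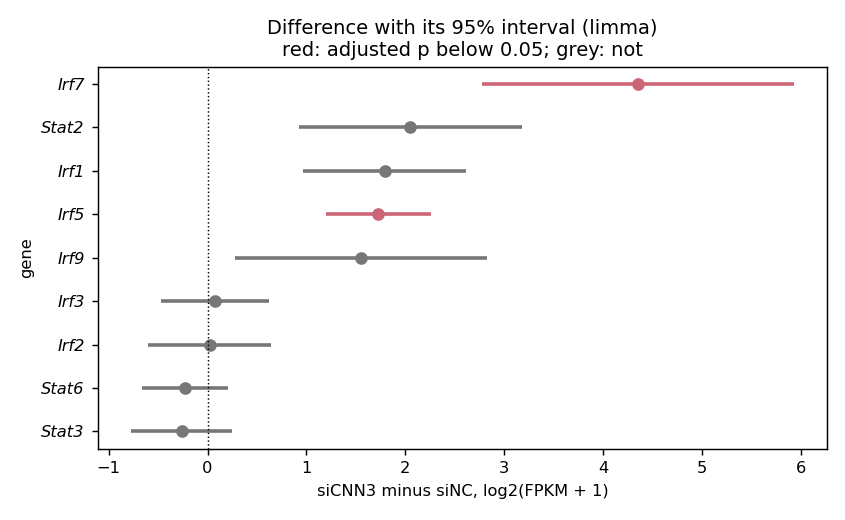
Difference between siCNN3 and siNC for each of the 9 genes on the log2(FPKM + 1) scale, with the limma estimate as a point and its 95% interval as a bar, in red where the adjusted p was below 0.05. Irf7 at 4.36 and Irf5 at 1.73 are red, and the intervals of Irf2, Irf3, Stat3 and Stat6 include 0.

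Irf1 and Irf2 are close relatives that bind the same elements, IRF1 as an activator of antigen presentation and antiviral genes and IRF2 mostly as its antagonist. Irf1 (chromosome 11, 53770014 to 53778374) was listed with 11.6, 21.7 and 8.19 FPKM in the siNC libraries (replicates 1, 2 and 3) against 40.6, 39.8 and 62.9 FPKM in the siCNN3 libraries. The lowest siCNN3 library was 1.84 times the highest siNC library. Its log2 difference of 1.79 ± 0.347 (SE, 95% interval 0.97 to 2.62) did not pass the threshold (adjusted p = 0.0586, limma), and Irf1 was called only without siNC replicate 2 (adjusted p = 0.0247). The log2 difference of Irf1 was 1.05 with the highest transcript, Irf1-202, whose groups overlapped, and 1.02 after removal of transcripts with an exact 0, among them Irf1-201. Irf2 (chromosome 8, 46739732 to 46847458) was listed with 11.8, 6.96 and 5.56 FPKM in the siNC libraries against 8.50, 6.68 and 8.64 FPKM in the siCNN3 libraries. The Irf2 groups overlapped, with a log2 difference of 0.02 (95% interval -0.60 to 0.64) that turned to -0.013 with median-of-ratios scaling and to -0.047 with quantile normalization. The ratio of Irf1 to Irf2 was 0.977, 3.11 and 1.47 in the siNC libraries and 4.78, 5.96 and 7.28 in the siCNN3 libraries, with no overlap (two-sided exact permutation p = 0.1).

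Stat2 and Irf9 encode the subunits that are particular to ISGF3, STAT2 with the transactivation domain and IRF9 with the contact to the ISRE. Stat2 (chromosome 10, 128270559 to 128292849) was listed with 6.65, 27.8 and 13.6 FPKM in the siNC libraries (replicates 1, 2 and 3) against 72.1, 72.5 and 41.5 FPKM in the siCNN3 libraries. The groups did not overlap, and siNC replicate 2 came closest to siCNN3, whose lowest library was 1.49 times as high. The log2 difference of Stat2 was 2.05 ± 0.476 (SE, 95% interval 0.92 to 3.18, adjusted p = 0.0910, limma), and Stat2 was called only without siNC replicate 2 (adjusted p = 0.0372), when its ratio of means moved from 3.87 to 6.13. Irf9 (chromosome 14, 55603571 to 55610030) was listed with 3.12, 16.3 and 13.6 FPKM in the siNC libraries against 34.6, 32.6 and 21.1 FPKM in the siCNN3 libraries. Here the gap between the groups was small, at 1.29-fold, and the log2 difference of 1.55 ± 0.536 (SE, 95% interval 0.28 to 2.82, adjusted p = 0.220, limma) was not called in any of the 6 fits without 1 library. Without siNC replicate 1, the lowest library, it was 0.90. The ratio of Stat2 to Irf9 was 2.13, 1.70 and 0.997 in siNC and 2.08, 2.23 and 1.97 in siCNN3, so it overlapped between the groups (two-sided exact permutation p = 0.3).

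The libraries of a group differed in a like order for several of these genes. Among the siNC libraries, replicate 1 was lowest and replicate 2 highest for Irf7, Irf9 and Stat2. Among the siCNN3 libraries, replicate 3 was lowest for Irf5, Irf7, Irf9, Stat2 and Stat6 but highest for Irf1, Irf2 and Stat3. A list of 26 target genes of ISGF3 followed the first order, with a mean log2 value relative to the siNC mean of -0.91, 0.98 and -0.07 in siNC replicates 1, 2 and 3 and of 3.73, 3.96 and 2.75 in siCNN3 replicates 1, 2 and 3. Replicate 1 of siNC also had the most transcripts listed at exactly 0, 2131 against 978 to 1333 in the other 5 libraries, among them Irf7-202, Irf7-204 and Irf9-205. The part of these zeros in the order was not tested.

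Irf3, the factor that is present before infection and is activated by phosphorylation, lies on chromosome 7 (44997648 to 45002848). It was listed with 6.61, 3.51 and 6.78 FPKM in the siNC libraries (replicates 1, 2 and 3) against 5.82, 5.76 and 5.79 FPKM in the siCNN3 libraries. The siCNN3 libraries lay inside the range of siNC, with a log2 difference of 0.08 and a 95% interval of -0.47 to 0.63. This difference was -0.18 without siNC replicate 2 and 0.47 for the highest transcript alone. Set against each other, the inducible Irf7 and Irf3 had a ratio of 0.1204, 3.37 and 0.786 in siNC and of 22.5, 21.1 and 13.2 in siCNN3. Thus Irf3 exceeded Irf7 in 2 of the siNC libraries and in 0 of the siCNN3 libraries.

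Stat3 transmits signals of the IL-6 family and Stat6 those of IL-4 and IL-13. Stat3 (chromosome 11, 100885098 to 100939540) was listed with 44.01, 35.8 and 40.05 FPKM in the siNC libraries (replicates 1, 2 and 3) against 25.8, 30.3 and 45.9 FPKM in the siCNN3 libraries. Replicate 3 of siCNN3 was above every siNC library and the other two below, so the groups overlapped (log2 difference -0.26, or -0.09 without siCNN3 replicate 1 and -0.49 without siCNN3 replicate 3, 95% interval -0.78 to 0.25, adjusted p = 0.597, limma). Stat6 (chromosome 10, 127642986 to 127660957) had the lowest level of the 9 genes, with 0.664, 0.871 and 0.990 FPKM in the siNC libraries against 0.730, 0.713 and 0.295 FPKM in the siCNN3 libraries. Its log2 difference was -0.23, with a 95% interval of -0.67 to 0.21 (adjusted p = 0.584, limma), or -0.53 with a pseudocount of 0.1 and -0.09 without siCNN3 replicate 3. Stat2 relative to Stat3 was 0.151, 0.777 and 0.339 in siNC and 2.79, 2.39 and 0.904 in siCNN3, without overlap (two-sided exact permutation p = 0.1).

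Placed in order of mean FPKM, the siNC libraries ran from Stat3 (39.9 ± 4.13) through Stat2, Irf1, Irf9, Irf2, Irf7 and Irf3 to Irf5 (1.60) and Stat6 (0.841 ± 0.165). From Stat2 down to Irf3, each gene overlapped its neighbour in this order, and only Stat3 above Stat2, Irf3 above Irf5 and Irf5 above Stat6 were apart in all libraries. In siCNN3 the order was Irf7 (109.6), Stat2 (62.0), Irf1 (47.8), Stat3 (34.0), Irf9 (29.4), Irf2 (7.94), Irf5 (7.63), Irf3 (5.79) and Stat6 (0.579). There the neighbours Irf7 and Stat2, Irf9 and Irf2, and Irf3 and Stat6 did not overlap. Irf7 therefore moved from the sixth place to the first.

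As a share of the summed FPKM of the 6 IRF genes, Irf7 made up 11.4 ± 8.52% in siNC and 52.0 ± 8.35% in siCNN3 (SD, n = 3). Irf2 made up 19.5 ± 12.4% and 3.87 ± 0.846%, and Irf3 made up 13.6 ± 6.99% and 2.81 ± 0.350%. These 3 shares did not overlap between the groups. The lower shares of Irf2 and Irf3 came with overlapping FPKM of these genes, while the IRF sum was 35.1, 61.8 and 41.7 FPKM in siNC and 229, 215 and 181 FPKM in siCNN3. Shares of Irf1 (29.2 ± 8.35% and 23.7 ± 9.64%), Irf5 (3.62 ± 1.41% and 3.63 ± 0.417%) and Irf9 (22.7 ± 12.4% and 14.0 ± 2.01%) overlapped. Among the 3 STAT genes, Stat2 made up 27.0 ± 15.2% in siNC and 63.5 ± 14.1% in siCNN3, Stat3 71.5 ± 15.2% and 35.9 ± 14.3%, and Stat6 1.49 ± 0.284% and 0.589 ± 0.220%, each without overlap. As with Irf2 and Irf3, the FPKM of Stat3 and Stat6 overlapped, while the STAT sum was 51.3, 64.4 and 54.6 FPKM in siNC and 98.6, 103.5 and 87.6 FPKM in siCNN3. For every share without overlap the two-sided exact permutation p was 0.1.

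**Figure D3:**
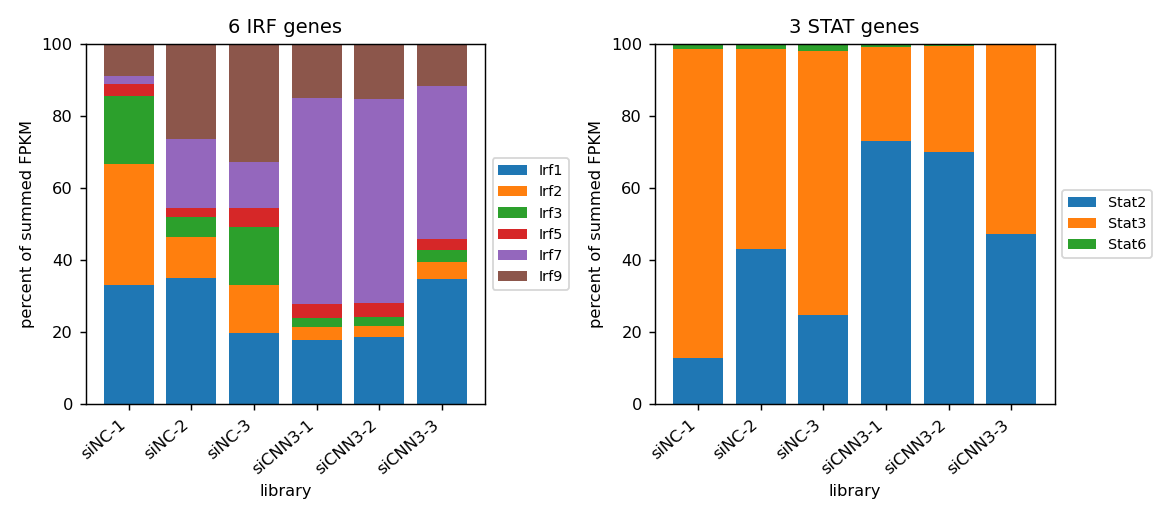
Percent of the summed FPKM of the 6 IRF genes (left) and the 3 STAT genes (right) that each gene held in each of the 6 libraries, as stacked bars. Irf7 takes 42.4 to 57.1% of the IRF sum in siCNN3 and 2.27 to 19.1% in siNC, and Stat3 takes 55.5 to 85.8% of the STAT sum in siNC and 26.2 to 52.3% in siCNN3.

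The 9 genes were listed as 27 transcripts, all annotated as protein coding. The division of a gene's FPKM among its transcripts is an estimate, and some exact zeros are doubtful, since 238 transcripts of the table had a 0 in 1 library although a replicate of that library reached 10 FPKM or more. Of the 27 transcripts, 9 were at 0 in at least 1 library. Of the 24 tested, limma called 2 higher, against 0.462% of the 21658 transcripts tested in all, and 0 lower, against 0.0785%. Without single libraries this number was 1 (siNC replicate 1 left out), 0 (siNC replicate 3 or either of siCNN3 replicates 1 and 2) or as many as 3 (siCNN3 replicate 3). The called ones were Irf7-203 (log2 difference 3.72 ± 0.354, adjusted p = 0.0263, limma) and Irf1-201 (3.96 ± 0.529, adjusted p = 0.0490, limma). Irf1-201 passed the filter on low values only through siCNN3, and 2 of its 3 siNC values are exact zeros, so its call is a description and no support for a difference.

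The full-length transcripts of Irf7 stood in like proportion in siCNN3, where Irf7-201, Irf7-202 and Irf7-203 held 35.8, 31.0 and 30.5% of the gene on average. Irf7-201 and Irf7-202 had log2 differences of 3.99 and 3.87 (adjusted p = 0.0580 and 0.0769, limma). The split of Irf1 among its transcripts varied within the groups as well as between them. Irf1-201 was listed with 0, 1.10 and 0 FPKM in the siNC libraries against 17.4, 10.2 and 37.4 FPKM in the siCNN3 libraries, while Irf1-202 was listed at 7.46, 9.59 and 4.09 and at 9.41, 14.3 and 24.4 FPKM. The 2 transcripts have the same coding length of 987 bases and differ in their start, at 53770495 for Irf1-201 and 53770014 for Irf1-202, the start on which the Irf1 window printed above is placed. Irf1-203 held 31.6, 0 and 38.0% of the gene in the siNC libraries against 26.3, 33.5 and 0.503% in the siCNN3 libraries, and Irf1-208 held 50.7% in siNC replicate 2 but 0 and 8.13% in the other siNC libraries. Irf1-202 held 52.9 ± 10.5% of the gene in siNC and 32.6 ± 8.31% in siCNN3 (SD, n = 3).

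The transcripts of Irf2 lay on opposite sides of no difference. Irf2-201, the complete transcript of 2497 bases and 9 exons, was listed with 9.91, 4.58 and 4.23 FPKM in the siNC libraries against 3.30, 2.64 and 3.01 FPKM in the siCNN3 libraries. Irf2-202, of 720 bases and 6 exons and annotated with an incomplete end, was listed with 1.62, 1.51 and 1.12 FPKM in the siNC libraries against 4.64, 3.56 and 4.87 FPKM in the siCNN3 libraries. Neither passed the test (log2 difference -0.78 and 1.15, adjusted p = 0.465 and 0.104, limma), but in both the groups did not overlap. Irf2-201 held 75.2 ± 9.04% of the gene in siNC and 37.7 ± 2.53% in siCNN3, and Irf2-202 held 18.5 ± 4.23% and 54.8 ± 1.54% (SD, n = 3). Over the 23 tested transcripts of the 8 genes with more than 1, the share did not overlap for 5, namely these 2, the 2 of Irf1 and Stat3-203, against 11.2% of all such transcripts. Shares within a gene depend on each other, so the 2 of Irf2 and the 2 of Irf1 are not separate results. Irf1-201 also passed the filter on low values only through siCNN3. The share of Stat3-203 was 40.2 ± 2.34% in siNC and 45.6 ± 1.54% in siCNN3.

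Stat3-202, whose coding length of 2166 bases is below the 2307 and 2310 bases of Stat3-201 and Stat3-203, held 13.3 ± 1.21% of Stat3 in siNC and 11.6 ± 2.45% in siCNN3, with overlap. Irf5 came mainly from Irf5-202, which starts at 29529282 and was listed with 1.14, 1.51 and 1.52 FPKM in the siNC libraries against 8.32, 6.74 and 3.79 FPKM in the siCNN3 libraries (log2 difference 1.56, adjusted p = 0.111, limma). Stat2-201 made up nearly all of Stat2, apart from siCNN3 replicate 2, where Stat2-202 was listed at 11.6 FPKM. Exons of 6 of the 9 genes share between 40 and 411 bases with an exon of another listed gene, on the opposite strand for 5 of them. The longest such stretch is that of Irf5. Strandedness is not given in the sources used here, so reads of these stretches cannot be assigned by strand.

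**Figure D4:**
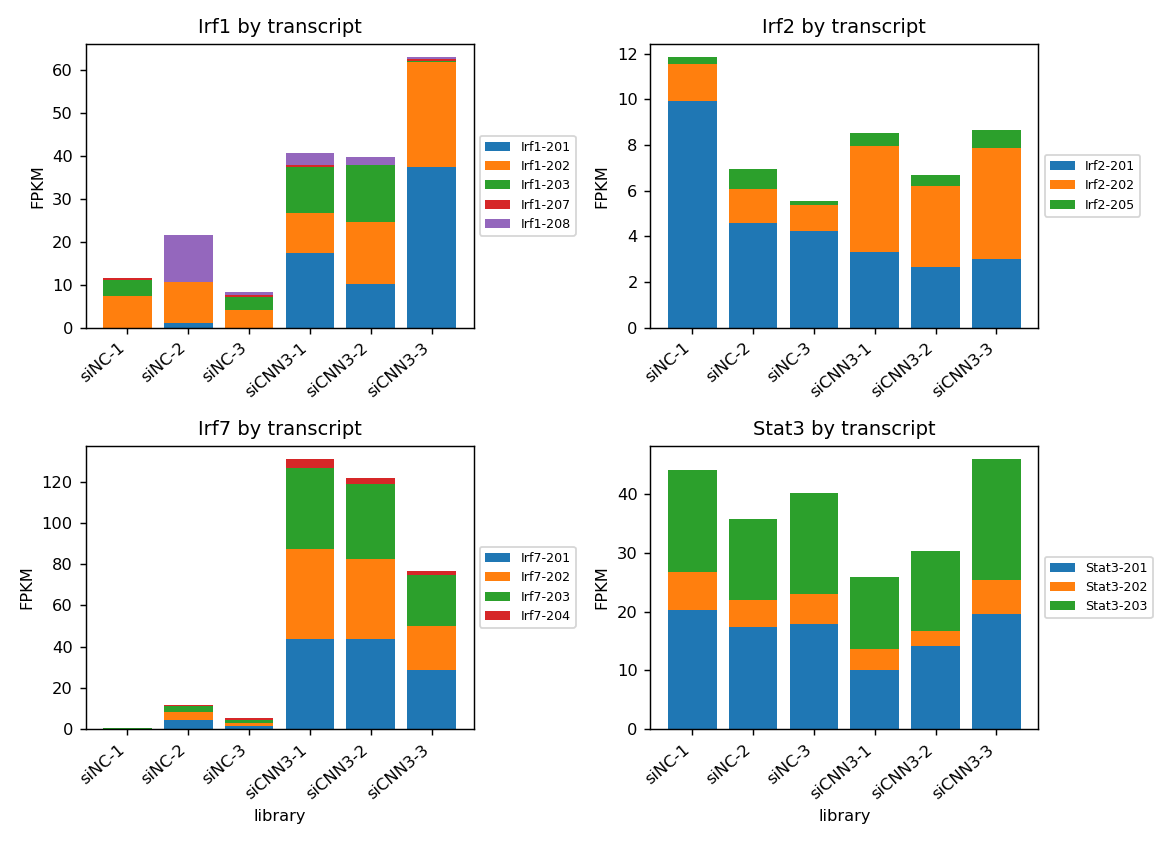
FPKM of each listed transcript of Irf1, Irf2, Irf7 and Stat3 in each library, stacked to the sum of the gene. Irf1-201 appears mainly in siCNN3, Irf2-201 makes up most of Irf2 in siNC and Irf2-202 in siCNN3, and the transcripts of Irf7 are far lower in siNC than in siCNN3.

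The genes whose profile over the 6 libraries came nearest to Irf7, by Euclidean distance between log2(FPKM + 1) values centred on each gene's mean, were Cfb, which encodes complement factor B (0.491), Phf11d (0.645) and Trim30a (0.764). Cfb, for example, was listed with 1.21, 12.3 and 5.85 FPKM in the siNC libraries against 189, 184 and 103 FPKM in the siCNN3 libraries. Nearest to Irf5 were 9930111J21Rik1 (0.287) and 9930111J21Rik2 (0.307), paralogs of similar sequence between which the division of reads is uncertain, and Stmn4 (0.338), which encodes a stathmin. The distances describe 6 libraries in 2 groups and include the difference between the groups.

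The genes around the factors were read from lists of known pathway genes, drawn up with earlier results of these data known, so that their counts are no independent evidence of direction. Counts of called genes were compared with the 1.73% called higher and 0.336% called lower among all tested genes. Among cytokines, receptors and JAK kinases, 1 of 18 tested genes rose, the cytokine gene Il6 (log2 difference 1.70, adjusted p = 0.0333, limma, not called under either other scaling), 0 fell, and the median was -0.01. The groups did not overlap for 3 of the 18 genes with siCNN3 higher (Il6, Ifnb1 and Lif), against 13.8% of all tested genes, and for 3 with siCNN3 lower (Il6ra, Lifr and Il10rb), against 9.35%. Of the lower ones, Il6ra and Lifr, receptors of the IL-6 family, had log2 differences of -0.59 and -0.75 (adjusted p = 0.106 and 0.111, limma), and Lifr was called without siCNN3 replicate 3. The interferon receptor genes Ifnar1 and Ifnar2 and the kinase genes Jak1 and Tyk2 overlapped between the groups. Ifnb1, the interferon gene on which IRF3 and IRF7 act, was listed with 0, 0.225 and 0 FPKM in the siNC libraries against 6.60, 7.79 and 1.01 FPKM in the siCNN3 libraries (adjusted p = 0.0976, or 0.00139 without siCNN3 replicate 3, limma). With exact zeros in siNC replicates 1 and 3, Ifnb1 passed the filter on low values only through siCNN3. Its p-values and separation are therefore a description and no support for a difference. Among nucleic acid sensors, their adaptors and the kinases of IRF3 and IRF7, 3 of 17 rose and 0 fell, with a median of 0.15, and 4 were higher and 1 lower without overlap. The ones that rose were the sensors Zbp1 (4.60, adjusted p = 0.00473), Ifih1 (2.80, adjusted p = 0.0494) and Ddx58 (2.26, adjusted p = 0.0312), all from limma, whereas the kinase genes Tbk1 (-0.10) and Ikbke (0.04) overlapped between the groups. Among feedback regulators and inhibitors 1 of 21 rose, Ifi35 (2.33, adjusted p = 0.0428, limma), and 0 fell, with a median of 0.10, and 5 were higher and 0 lower without overlap. Among these called genes, Zbp1 was called in all 6 fits without 1 library, Ddx58 in 3, and Il6, Ifih1 and Ifi35 in 2 each. Usp18, which restrains the interferon receptor, had a log2 difference of 4.75 but a wide spread in siNC, at 0.412, 17.3 and 2.91 FPKM (adjusted p = 0.0525, limma).

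Of 26 ISGF3 targets, 15 rose and 0 fell, siCNN3 was higher without overlap for 23, against 13.8% of all tested genes, and the median log2 difference was 3.42. The antiviral genes Ifit3 (5.88), Oas1a (5.02) and Rsad2 (4.80) had the largest differences among those called. Rsad2 was listed at 0 in siNC replicates 1 and 3. The called Oas2, Oas3, Oasl1 and Ddx60 had siNC means of 0.212, 0.135, 0.0628 and 0.330 FPKM. They passed the filter on low values only through siCNN3, as did Cmpk2 and Uba7, which were not called but are among the 23. Calls and separation of these genes are a description and no support for a difference. Of 26 genes known as targets of IRF1 or of GAS-binding STAT dimers, 12 rose and 0 fell, siCNN3 was higher without overlap for 25, against the same 13.8%, and the median was 2.66. Here the chemokine gene Cxcl10 (6.30) and the immunoproteasome genes Psmb8 (3.76) and Psmb9 (3.68) led the called genes. Psmb8 and Psmb9 had siNC means of 0.334 and 0.224 FPKM and passed the filter only through siCNN3. So did the called Nlrc5, Cxcl9 and Il15, and Cxcl11, which was not called but is among the 25. For these genes too, calls and separation are no support for a difference. On the STAT3 list, 1 of 22 targets rose, the growth regulator Myc (0.91, adjusted p = 0.0157, limma), and 0 fell. At an unadjusted p below 0.05, 4 of the 22 were higher and 2 lower, and the median was 0.12. Of 7 tested STAT6 targets, out of 15 on the list, 0 rose and 0 fell by limma, 1 was higher and 0 lower at an unadjusted p below 0.05, and the median was 0.16. The shares of all tested genes at that unadjusted p were 9.94% higher and 6.14% lower. With 1 library left out, calls on these lists moved along with those over all genes, except without siNC replicate 2. In that fit 16 ISGF3 targets and 16 IRF1 and GAS targets were called higher, among 150 genes in all. With all libraries the numbers were 15 and 12 among 200. Without siNC replicate 3, 1 ISGF3 target and 0 IRF1 and GAS targets were called higher, among 16 genes in all. Without siCNN3 replicate 1 the numbers were 2 and 5 among 39, without siCNN3 replicate 2 they were 2 and 2 among 28, and without siNC replicate 1 they were 6 and 6 among 71. Without siCNN3 replicate 3 they were 16 and 19 among 443. Many ISGF3 and IRF1 targets answer to both factors, so these lists are not separate readouts of them, and no test of a difference between the lists was made.

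**Figure D5:**
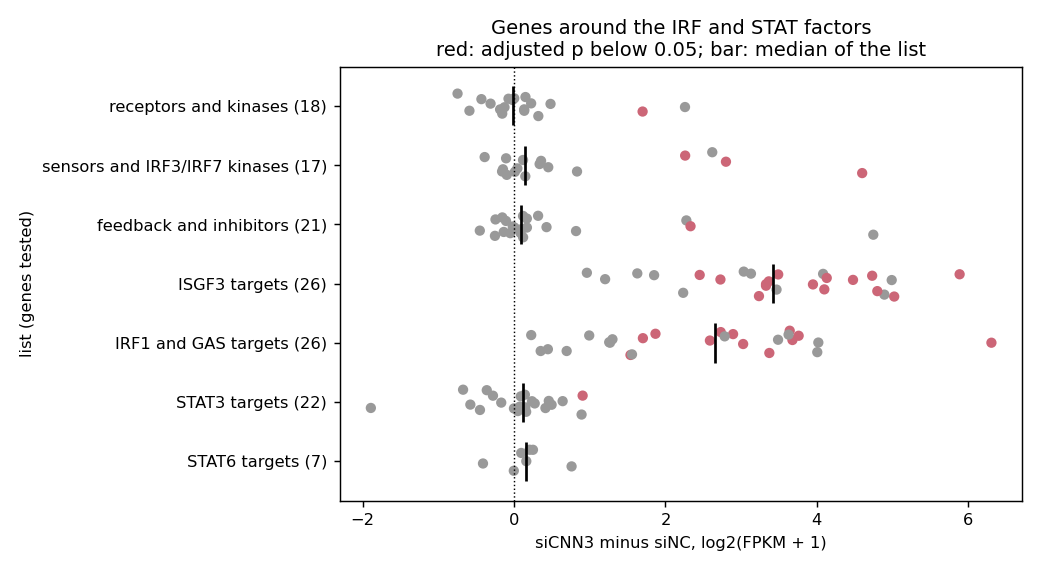
Difference between siCNN3 and siNC on the log2(FPKM + 1) scale for each tested gene of 7 lists around the factors, in red where the limma adjusted p was below 0.05, with a bar at the median of the list. The lists of ISGF3 targets and of IRF1 and GAS targets have medians of 3.42 and 2.66, and the other 5 have medians between -0.01 and 0.16.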

How the data were processed

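RNA of C2C12 cells had been sequenced in 6 libraries (3 siNC, 3 siCNN3). The authors deposited FPKM for 24023 Ensembl transcripts. The submitters' processing notes name Bowtie 0.12.2 and the builds mm8 and mm10 without their roles, and the program that estimated FPKM and its annotation are not given in the sources used here. Identifiers without their version were matched to GENCODE vM21 of GRCm38 (23949 matched, and the 74 unmatched held 0.159 to 0.220% of a library's FPKM), and FPKM were summed per gene symbol. Since FPKM are not counts, genes averaging 0.5 FPKM or more were kept, 1 was added, and log2 values were fitted in limma 3.58.1 (R 4.3.3) with empirical Bayes moderation that follows the mean-variance trend. P-values were adjusted by Benjamini-Hochberg over all tested genes or transcripts, with a threshold of 0.05. The fit was tested on simulated data. A gene was called higher or lower where its adjusted p was below 0.05, and rose or fell is written only of such genes. The depth of the libraries is unknown. The summed FPKM of a library was 322621 to 355591, which does not measure it.

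The members and lists were chosen with earlier results of these data known. Named are the 9 factors, Cnn3, the 3 called genes of a list with the largest difference and all called genes of a list that fell, and the 3 genes nearest to each called factor. Genes named beyond this rule were chosen after their values were seen. Other IRF and STAT genes are not reported here. Alternatives were another pseudocount, other filters, other scaling, a block for the replicate number, leaving out single libraries, limma without a trend, and the highest transcript in place of the sum. R used the data.table package, version 1.17.8. Exact tests and figures were made with scipy 1.17.1, matplotlib 3.10.9, numpy 2.4.6 and pandas 2.3.3 under Python 3.11.15.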

Additional observations from a re-analysis of the deposited data

How the results depend on the processing

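The number of the 9 genes called higher was 2, and it was 1 with a pseudocount of 0.1 (Irf7 then had an adjusted p of 0.0506, limma), with a filter at a mean of 5 FPKM, which removes Irf5, with the highest transcript in place of the sum, and after removal of transcripts listed at exactly 0, an alternative chosen after seeing the data. Leaving out 1 library gave 0 to 4 (without siNC replicate 2, Irf1 and Stat2 were called too), and no alternative called any of the 9 lower. The correlations of same-numbered deviations were -0.278, 0.314 and -0.0247, and those of differently numbered ones lay between -0.445 and 0.442. With 3 libraries in a group, these values cannot decide whether replicate numbers pair the samples. With the replicate block, 0 of the 9 genes were called (Irf5 adjusted p = 0.0796, Irf7 adjusted p = 0.0565, limma), 62 of all genes were higher and 6 lower, and called higher were 8 ISGF3 targets, 9 IRF1 and GAS targets, 2 sensors and kinases, 0 receptors and kinases, 0 feedback genes and 0 STAT3 targets. Over all genes, 200 higher and 39 lower became 218 and 63 with median-of-ratios scaling and 199 and 93 with quantile normalization, 100 and 22 with the highest transcript, and 125 higher without exact zeros. Without single libraries there were 16 to 443 higher and 4 to 159 lower genes. The call of Il6 among receptors and kinases was lost with both other scalings (0 called), and that of Ifi35 without a trend (0), while 2 feedback genes were called with the filter at 5 FPKM. With the highest transcript, 7 ISGF3 targets and 7 IRF1 and GAS targets were called, and without exact zeros 8 and 7. Without single libraries, called higher were 1 to 16 ISGF3 targets, 0 to 19 IRF1 and GAS targets, 1 to 4 sensors and kinases, 0 to 3 feedback genes, 0 to 2 receptors and kinases, 0 to 1 STAT3 targets and 0 to 1 STAT6 targets, and called lower were 0 to 1 receptors and kinases, 0 to 1 STAT3 targets and 0 to 1 STAT6 targets. Of the transcripts of the 9 genes, 1 was called with a pseudocount of 0.1 and 0 to 3 without single libraries. The sign of Irf2 turned, with log2 differences of -0.013 (median of ratios), -0.047 (quantile normalization) and -0.78 (highest transcript) and -0.19 to 0.30 without single libraries, and Irf3 ranged from -0.18 to 0.21 without single libraries and was 0.47 with the highest transcript. The cause of these changes was not tested. The unknown depth and the 3 libraries in a group limit the precision of all values.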
